A study of Arabidopsis thaliana with 12 samples.

Results

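The 48 genes described here encode the expansins and the xyloglucan endotransglucosylase/hydrolases (XTHs) of Arabidopsis thaliana that loosen and remodel the growing cell wall. They were chosen by family name and AGI locus code: 19 alpha-expansins (EXPA), 4 beta-expansins (EXPB) and 25 XTH genes, out of 27588 genes in the count table. Expansins slide apart the contacts between cellulose and other wall polymers when the wall is acid, without cutting a bond. XTHs cut the backbone of xyloglucan, the main hemicellulose tethered to cellulose in dicot walls, and join the cut end to another chain or to water. In seedlings both families act where cells elongate, as in hypocotyls, petioles and root tips, and several members are known mainly from root hairs or vascular tissue.

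The 12 libraries hold messenger RNA of whole seedlings of 4 genotypes (3 libraries per genotype), all labelled with the Columbia 0 ecotype. The groups were a CFH1 decoy line, a PIF3 over-expression line, a cfh1 mutant (cfh1-1) and wild-type Col-0. All seedlings were kept for 7 days under alternating light (12 h) and dark (12 h), then under constant red light, until they were harvested on day 12 at zeitgeber time 1 (hours counted from subjective dawn). The series title ties CFH1 to the clock and to photomorphogenesis in red light, in which PIF3, a transcription factor bound by light-activated phytochrome, also acts. The sources used here do not give the promoters driving the decoy and PIF3, the nature of the cfh1-1 allele or the number of independent lines. The titles of the PIF3 libraries read pif3 mutant, against over-expression in their genotype field.

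The PIF3 transcript was used to check that label. It stood at 348, 350 and 363 CPM (counts per 1e6 counts, scaled with TMM factors) in the PIF3 over-expression libraries, against 22.8, 26.6 and 36.9 CPM in Col-0. The log2 fold change was 3.62 (SE 0.228, edgeR adjusted p = 5.341e-06). No locus is paired with the name CFH1 in the sources used here, so the mutant and decoy labels have no such check. Total counts ran from 21914394 to 34345088 per library, both extremes being decoy libraries. The decoy libraries stood apart: 211 genes that passed as lower than in Col-0 had at most 3 counts over the decoy libraries, against 4 such genes with PIF3 over-expression and 0 in cfh1. Spearman correlations between decoy libraries were 0.975 to 0.981, against 0.991 to 0.996 between Col-0 libraries. What the decoy does and what else may differ in that line cannot be told apart. With 1 collection time, a changed level and a shifted daily cycle cannot be told apart either, and separate cultures are nowhere mentioned in the labels, so the spread behind each p-value may be technical.

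The promoters of 5 members are printed. EXPA11, EXPA12 and XTH19 rose with PIF3 over-expression in every alternative tried, XTH33 rose in both lines, and XTH18 is the tandem neighbour of XTH19. Each runs from 250 bases before to 50 bases after the annotated gene start in the TAIR10.1 genome (RefSeq). EXPA12 lies on the plus strand (chr3:5190304-5190603), while EXPA11 (chr1:6999790-7000089), XTH33 (chr1:3480992-3481291), XTH18 (chr4:14827162-14827461) and XTH19 (chr4:14830175-14830474) lie on the minus strand. XTH18 and XTH19 are tandem neighbours with XTH24 on chromosome 4. Sequences are on the strand of the gene, and capitals mark CACATG or its reverse complement CATGTG, the E-box variant bound by PIF proteins.
EXPA12: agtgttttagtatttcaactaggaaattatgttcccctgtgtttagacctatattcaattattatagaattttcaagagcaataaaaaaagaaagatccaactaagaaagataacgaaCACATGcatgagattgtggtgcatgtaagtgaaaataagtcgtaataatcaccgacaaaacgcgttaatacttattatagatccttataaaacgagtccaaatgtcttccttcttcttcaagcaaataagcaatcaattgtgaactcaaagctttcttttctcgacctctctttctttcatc
EXPA11: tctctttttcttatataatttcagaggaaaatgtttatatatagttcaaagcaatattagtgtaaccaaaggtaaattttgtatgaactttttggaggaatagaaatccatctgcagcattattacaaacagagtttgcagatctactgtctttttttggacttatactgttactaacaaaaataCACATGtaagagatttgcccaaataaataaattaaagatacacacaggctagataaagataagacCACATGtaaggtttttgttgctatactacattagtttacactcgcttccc
XTH33: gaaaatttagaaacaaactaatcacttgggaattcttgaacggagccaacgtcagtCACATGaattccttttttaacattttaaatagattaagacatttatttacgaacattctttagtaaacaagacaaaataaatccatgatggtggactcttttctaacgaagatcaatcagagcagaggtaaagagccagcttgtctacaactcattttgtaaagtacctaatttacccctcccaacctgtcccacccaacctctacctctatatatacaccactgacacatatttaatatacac
XTH18: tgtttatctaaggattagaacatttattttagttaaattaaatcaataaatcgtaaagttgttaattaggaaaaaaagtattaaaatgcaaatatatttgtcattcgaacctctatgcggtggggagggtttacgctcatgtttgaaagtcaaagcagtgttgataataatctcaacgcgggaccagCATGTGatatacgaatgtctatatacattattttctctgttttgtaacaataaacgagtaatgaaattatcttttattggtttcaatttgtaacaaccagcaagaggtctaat
XTH19: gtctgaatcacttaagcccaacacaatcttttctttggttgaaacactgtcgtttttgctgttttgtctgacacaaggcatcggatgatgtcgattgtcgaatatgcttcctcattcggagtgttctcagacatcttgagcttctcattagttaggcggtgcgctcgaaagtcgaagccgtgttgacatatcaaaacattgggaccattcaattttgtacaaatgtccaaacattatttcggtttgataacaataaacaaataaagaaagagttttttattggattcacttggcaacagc

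That E-box was found in 11 of the 48 promoters (22.9%), against 12.9% of all 27444 promoters of the same length searched on both strands. The G-box CACGTG, the other site bound by PIF proteins, occurred in 1 member, EXPB2 (2.08%), against 7.68% of all promoters. The auxin response element TGTCTC occurred in 8 members (16.7% against 14.2%), and the evening element core AAATATCT in 3 (6.25% against 5.65%). No match of one motif overlapped a match of another in these windows. EXPA11 held 2 E-boxes, starting at -65 and +1 from the gene start. XTH18 held one at -63 on the opposite strand, where its near-copy XTH17 also had one, while XTH19 had no match in its window. A match describes letters in this window and is no evidence of binding.

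In Col-0, levels spanned the whole range from the most abundant wall transcripts to none. Per kb of exon, XTH7 (AT4G37800) was highest at 363 ± 75.6 CPM per kb (SD, n = 3), followed by XTH4 (AT2G06850) at 288 ± 41.7 and EXPA1 (AT1G69530), an expansin of guard cells and leaves, at 246 ± 18.5 CPM per kb. Each of these overlapped the next in the order within 1 SD. XTH31 at 74.5 ± 2.38, EXPA6 at 69.3 ± 5.59 and XTH24 at 62.4 ± 23.4 CPM per kb came next, with overlapping spreads, well below the first 3. XTH4, XTH7 and EXPA1 together took between 38.8% and 51.7% of the counts of all 48 members in each of the 12 libraries. EXPB4 (AT2G45110) and XTH3 (AT3G25050) were at 0 counts in every library, and EXPA2 (AT5G05290), an expansin of germinating seeds, had 0 to 12 counts per library. These 3 genes were not tested, which left 45 members (21 expansins and 24 XTHs).

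**Figure D1:**
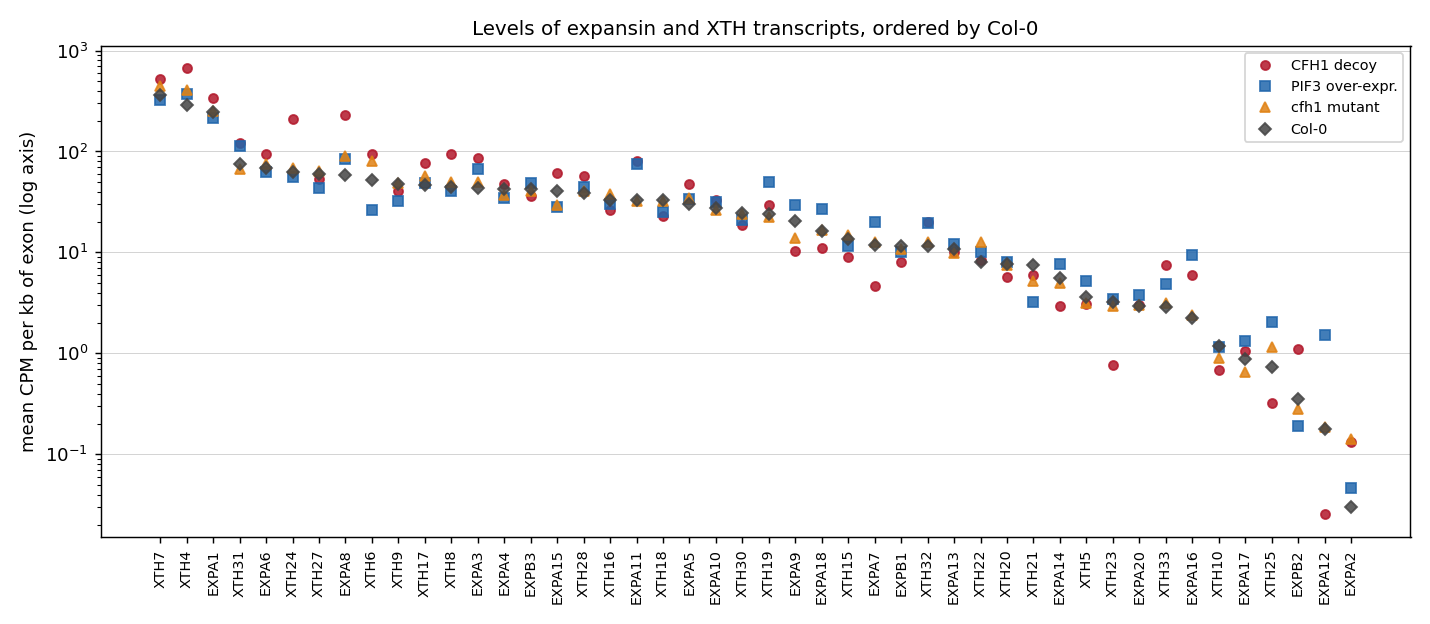
Mean CPM per kb of exon on a log axis for the 46 members with counts, ordered by their level in Col-0; each marker is the mean of 3 libraries of a genotype. XTH7, XTH4 and EXPA1 lead at 363, 288 and 246 CPM per kb in Col-0, and EXPA8 and XTH24 in the decoy line stand above their neighbours.

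Some counts of single members are uncertain. The coding sequences of XTH17 and XTH18 are 92.2% identical and those of XTH18 and XTH19 89.2%, and XTH17 to XTH20 are all at least 84.3% identical, so estimated counts may move reads between them. XTH15 shares 382 bases with AT4G14120 on the opposite strand, EXPA20 shares 1061 bases with an antisense long noncoding RNA, and EXPA7 and EXPA18 share 23 and 46 bases with neighbours. How strand was handled in counting is not given here.

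The decoy line was compared with Col-0 to ask how the wall genes respond when the CFH1 decoy is present. Members rose more often than they fell: 16 of the 45 tested were higher (35.6%) and 8 lower (17.8%), against 19.6% of all genes tested higher and 21.2% lower. The share that fell was therefore close to that of all genes. Expansins accounted for 7 of the rises and 5 of the falls, and XTHs for 9 and 3. The median log2 fold change of the members was 0.17, against -0.00089 over all genes.

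Among the expansins, EXPA8 (AT2G40610; TAIR10.1 chromosome 2, 16948791 to 16950705, minus strand) rose most. It stood at 406, 212 and 300 CPM in the decoy libraries, against 77.7, 71.6 and 81.1 CPM in Col-0. The lowest decoy library was still more than any Col-0 library, and the change was 3.98-fold (log2 1.99, SE 0.226, edgeR adjusted p = 3.175e-05). EXPA11 (AT1G20190) stood at 140, 90.5 and 97.0 CPM in the decoy libraries, against 41.4, 42.9 and 48.1 CPM in Col-0, 2.47-fold higher (SE of log2 0.176, edgeR adjusted p = 0.0001309). EXPA3 (AT2G37640) stood at 200, 141 and 121 CPM, against 73.4, 79.6 and 81.2 CPM in Col-0, with a log2 fold change of 0.98 (SE 0.240, edgeR adjusted p = 0.006606). The groups did not overlap for any of these. EXPA16 (AT3G55500) was at a low level, 8.92, 8.25 and 5.38 CPM in the decoy libraries and 2.18, 2.08 and 4.12 CPM in Col-0. Its log2 fold change of 1.43 (SE 0.439, edgeR adjusted p = 0.02077) lost its call without decoy library 1 (1.29), Col-0 library 1 (1.28) or Col-0 library 2 (1.25). The other expansins that rose, EXPA5, EXPA15 and EXPA1, did so by 0.46 to 0.65 on the log2 scale. The EXPA1 call was lost without decoy library 1 (0.34) or 3 (0.48) or any single Col-0 library (0.40 to 0.51), and the EXPA5 call without decoy library 1 (0.48) or Col-0 library 2 (0.62) or 3 (0.58).

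XTH24 (AT4G30270; chromosome 4, 14819192 to 14820595, minus strand), known as MERI5 from its meristem expression, rose most among the XTHs. Its libraries held 326, 219 and 225 CPM in the decoy line, against 59.1, 59.3 and 108 CPM in Col-0. The log2 fold change was 1.76 (SE 0.284, edgeR adjusted p = 0.0004712), and the groups stayed apart although Col-0 library 3 was well above the other Col-0 libraries. XTH4, already one of the most abundant members, stood at 1485, 846 and 902 CPM in the decoy libraries, against 446, 408 and 539 CPM in Col-0 (log2 1.21, SE 0.234, edgeR adjusted p = 0.001553). XTH8 (AT1G11545) stood at 142, 98.9 and 103 CPM, against 54.4, 50.4 and 55.8 CPM in Col-0 (log2 1.10, SE 0.170, edgeR adjusted p = 0.0003624). XTH33 (AT1G10550), which is anchored in the plasma membrane, was low in all genotypes, with 9.26, 7.63 and 10.4 CPM in the decoy libraries and 3.44, 3.14 and 3.81 CPM in Col-0 (log2 1.39, SE 0.190, edgeR adjusted p = 0.0001442). None of these 4 XTHs overlapped Col-0. XTH32, XTH17, XTH31 and XTH28 rose by 0.54 to 0.77 on the log2 scale, and the XTH17 call was lost without decoy library 3 (0.62) or Col-0 library 2 (0.70). XTH6 passed at 0.85, with 172, 64.2 and 178 CPM in the decoy libraries against 88.3, 69.9 and 70.9 CPM in Col-0: decoy library 2 lay below every Col-0 library, and the call was lost when decoy library 1 (0.66), decoy library 3 (0.61) or any single Col-0 library (0.79 to 0.97) was left out.

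**Figure D2:**
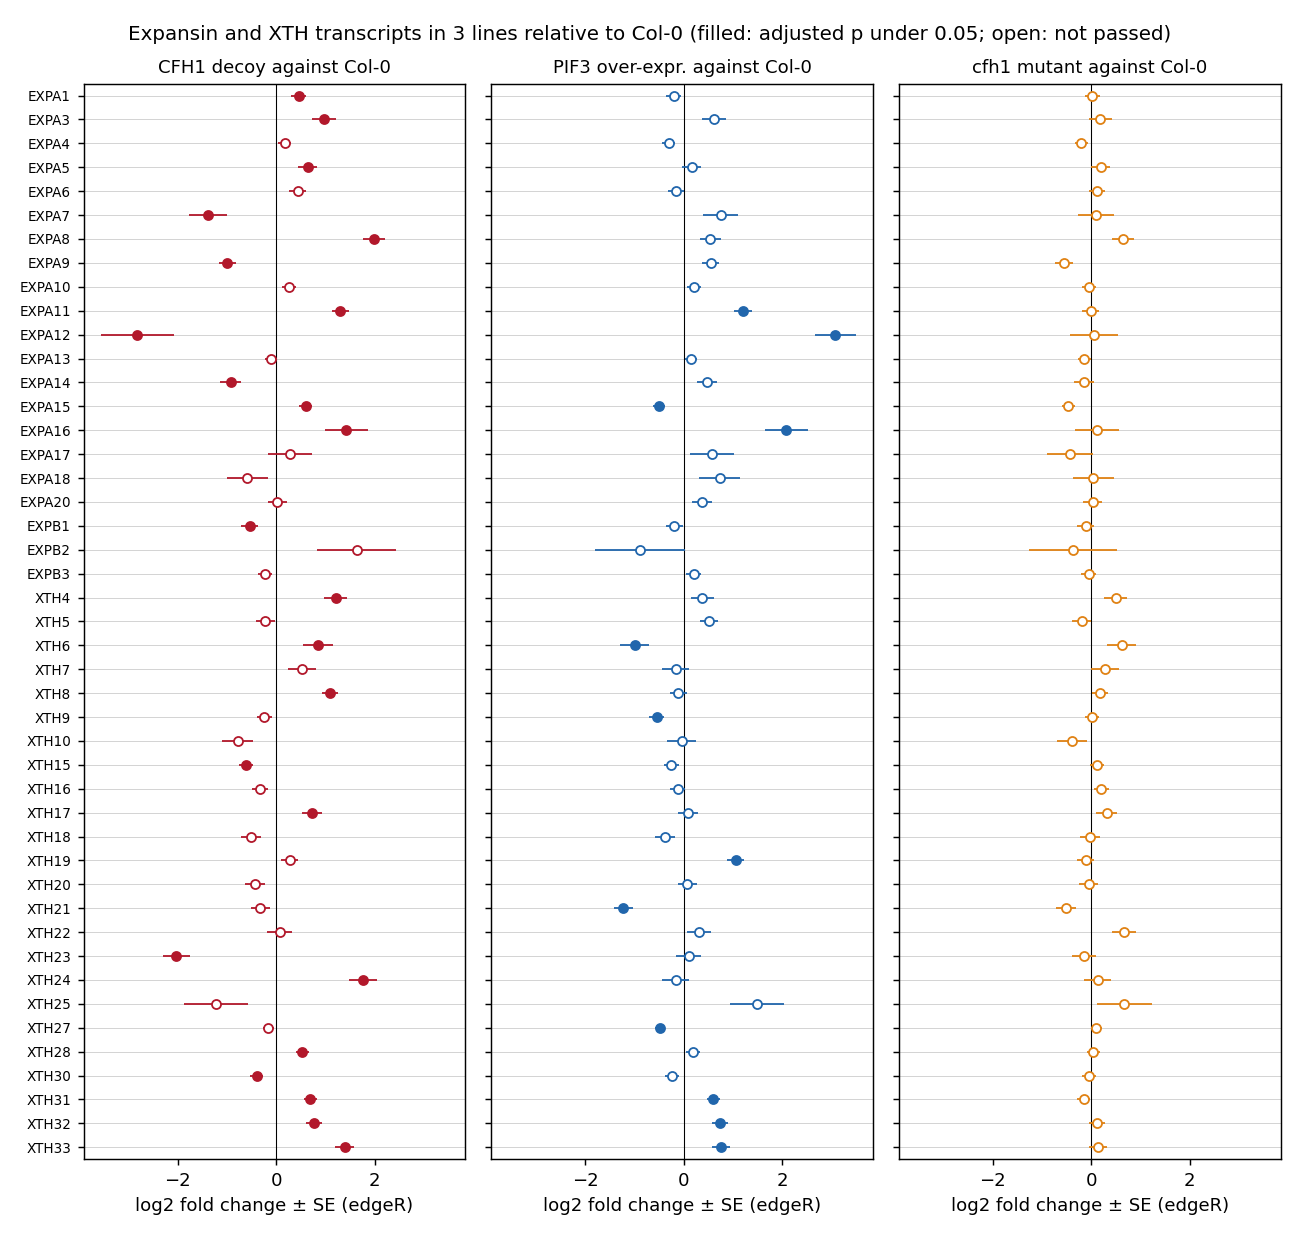
Log2 fold change with its SE from edgeR for the 45 tested members in each line against Col-0; filled points have an adjusted p under 0.05 and open points did not pass. The decoy panel has 24 filled points, the PIF3 over-expression panel 12 and the cfh1 panel 0, the Col-0 libraries are the same in all panels, and the decoy value of EXPA12 rests on 2 counts.

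Members that fell in the decoy line included rare transcripts. EXPA12 (AT3G15370) had 2 counts over the decoy libraries, against 20 over the Col-0 libraries, a ratio of 0.125 with a 95% interval of 0.0142 to 0.514 that covers counting error only (edgeR adjusted p = 0.009366). It was tested only because the PIF3 over-expression libraries passed the filter on low counts, and it was not tested when decoy and Col-0 were fitted alone. XTH23 (AT4G25810), a close relative of the touch-induced XTH22, stood at 0.633, 0.992 and 1.56 CPM in the decoy libraries, against 4.25, 4.28 and 4.84 CPM in Col-0, 4.07-fold lower (SE of log2 0.280, edgeR adjusted p = 0.0001565). XTH22, also called TCH4, shares 80.4% of its coding bases with XTH23 and did not pass (log2 0.07, SE 0.248). EXPA9 (AT5G02260) stood at 14.3, 16.1 and 11.4 CPM in the decoy libraries, against 25, 32.3 and 25.5 CPM in Col-0 (log2 -0.99, SE 0.178, edgeR adjusted p = 0.001013). EXPA14 (AT5G56320) stood at 4.72, 5.92 and 4.34 CPM, against 8.38, 12.9 and 7.11 CPM in Col-0 (log2 -0.92, SE 0.213, edgeR adjusted p = 0.004731). For all of them every decoy library lay below every Col-0 library. XTH15 fell by 0.61 on the log2 scale, with 13.6, 9.12 and 9.78 CPM in the decoy libraries and 17.9, 14.4 and 17.0 CPM in Col-0. EXPB1, at 16.3, 10.6 and 10.02 CPM in the decoy libraries and 18.8, 19.4 and 15.0 CPM in Col-0, fell by 0.54 with overlapping groups. XTH30, at 30.3, 22.2 and 26.8 CPM in the decoy libraries and 36.7, 31.2 and 36.2 CPM in Col-0, fell by 0.39. The EXPB1 call was lost without decoy library 2 or 3 or Col-0 library 1 or 2 (-0.42 to -0.49), and the XTH30 call without decoy library 2 or 3 or Col-0 library 1 or 3 (-0.29 to -0.42).

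Scaling moved this split. With library totals alone, without TMM factors, the median of all genes shifted to -0.25 on the log2 scale and that of the members to -0.084. Then 9 members were higher and 16 lower (3 and 6 expansins, 6 and 10 XTHs). The share of all genes called under that scaling is not given here. Of the 24 calls, 15 held under every alternative fit in which the gene was tested, 13 for EXPA12 and 14 for the others: EXPA3, EXPA8, EXPA11, XTH4, XTH8, XTH24, XTH31, XTH32 and XTH33 among the rises, and EXPA7, EXPA9, EXPA12, EXPA14, XTH15 and XTH23 among the falls. The minimum log2 fold change of 1 in size is not among these fits. EXPA3, XTH31, XTH32, EXPA9, EXPA14 and XTH15 lay under it. The 21 members that did not pass lay between -1.22 (XTH25) and 1.63 (EXPB2), both rare transcripts with wide spreads.

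EXPA7 (AT1G12560) and EXPA18 (AT1G62980) are root hair expansins. EXPA7 stood at 6.50, 1.92 and 7.18 CPM in the decoy libraries, against 14.4, 12.1 and 13.5 CPM in Col-0, and fell by 1.38 on the log2 scale (SE 0.381, edgeR adjusted p = 0.0122). Its groups did not overlap, and without decoy library 2, the lowest, the fold change was -0.96 and still passed. EXPA18 stood at 18.9, 4.25 and 18.0 CPM in the decoy libraries, against 22.2, 18.1 and 20.7 CPM in Col-0, and did not pass (-0.58, SE 0.422). The summed level of 7 root hair markers was 159.5, 36.9 and 182.1 CPM in the decoy libraries, against 140.4, 131.8 and 153.9 CPM in Col-0, so decoy library 2 was low in both expansins and in the markers. All 7 markers were above 0 in every library. Of the markers, 4 of 7 were lower in the decoy line, against 21.2% of all genes tested, led by RSL4 (-2.29), a factor that drives root hair growth, and RHD6 (-1.09). The count ran from 1 to 4 when single libraries were left out. Without decoy library 2, 2 markers were lower and 1 higher. LRX1 and PRP3, named after their values were seen, were above all Col-0 libraries in decoy libraries 1 and 3. LRX1 stood at 48.2, 7.57 and 46.4 CPM in the decoy, against 27.8, 29.2 and 28.3 CPM in Col-0. PRP3 stood at 84.7, 12.3 and 95.1 CPM, against 65.4, 55.7 and 74.1 CPM. Fewer root hair cells and less RNA per cell cannot be told apart in whole seedlings, and the part of the markers in the expansin values was not tested. With PIF3 over-expression EXPA7 stood at 27.4, 21.1 and 18.8 CPM and EXPA18 at 43.1, 31.4 and 26.9 CPM, above all Col-0 libraries, but neither passed (0.75, SE 0.357, and 0.73, SE 0.412). The summed markers were then 376.7, 223.3 and 208.7 CPM, all above Col-0, with 0 of 7 passing in edgeR or DESeq2 (1 higher at an unadjusted p under 0.05) and a median log2 fold change of 0.59. Over all genes tested in edgeR, 6.0% were higher with PIF3 over-expression and 7.32% lower.

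**Figure D3:**
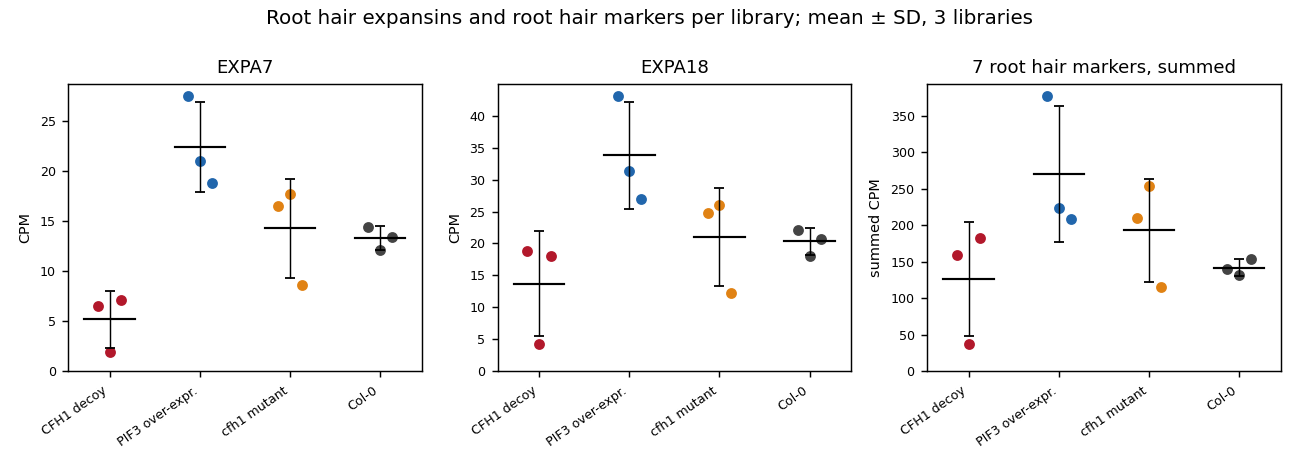
CPM of EXPA7 and EXPA18 and the summed CPM of 7 root hair markers in each library; lines and bars are the mean and SD of 3 libraries. Decoy library 2 is the lowest in all 3 panels, at 1.92, 4.25 and 36.9 CPM.

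PIF3 over-expression was compared with Col-0 to ask how the same genes stand when the transcript of this phytochrome-interacting factor is abundant. The data hold RNA only, so the level of PIF3 protein is not known here. Here 7 of the 45 members were higher (15.6%) and 5 lower (11.1%), against 6.0% of all genes tested higher and 7.32% lower. Expansins gave 3 of the rises and 1 of the falls, and XTHs 4 and 4. The median log2 fold change of the members was 0.16, against -0.0012 over all genes. The comparison shares its Col-0 libraries with the others.

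EXPA12 rose most, although it stayed a rare transcript. It passed the filter on low counts through the PIF3 over-expression libraries alone, so its count among the members that rose is no support for the list. It stood at 2.40, 1.31 and 1.57 CPM with PIF3 over-expression, against 0.144, 0.205 and 0.275 CPM in Col-0, or 185 against 20 counts over each group. The fold change was 8.43 (log2 3.08, SE 0.415, edgeR adjusted p = 0.001369), and no library overlapped. EXPA16 stood at 9.17, 10.6 and 15.6 CPM with PIF3 over-expression, against 2.18, 2.08 and 4.12 CPM in Col-0 (log2 2.08, SE 0.438, edgeR adjusted p = 0.009652), a call lost without Col-0 library 1 (1.93) or 2 (1.91). EXPA11 was the abundant expansin of the 3, at 86.1, 109 and 111 CPM with PIF3 over-expression, against 41.4, 42.9 and 48.1 CPM in Col-0 (log2 1.21, SE 0.175, edgeR adjusted p = 0.001953). EXPA15 (AT2G03090) went the other way, at 38.8, 44.6 and 39.1 CPM with PIF3 over-expression, against 57.2, 65.6 and 50.6 CPM in Col-0 (log2 -0.50, SE 0.127, edgeR adjusted p = 0.02111). Its groups did not overlap, but the call was lost without Col-0 library 1 (-0.51) or 2 (-0.40) or PIF3 over-expression library 1 or 3 (-0.47 each).

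XTH19 (AT4G30290), known from roots and elongating hypocotyls, was the XTH that rose most. It stood at 83.1, 63.2 and 55.3 CPM with PIF3 over-expression, against 29.4, 30.2 and 37.2 CPM in Col-0, 2.08-fold higher (SE of log2 0.176, edgeR adjusted p = 0.00364). Its tandem neighbour XTH18 stood at 32.2, 37.2 and 26.2 CPM, against 40.5, 38.5 and 45.6 CPM in Col-0, and did not pass (-0.38, SE 0.202). The neighbours thus had values on opposite sides of Col-0, within the limits of counting near-copies given above. XTH31 (AT3G44990) and XTH32 (AT2G36870) belong to the clade in which xyloglucan hydrolysis has been described. XTH31 stood at 148, 183 and 143 CPM with PIF3 over-expression, against 102, 101 and 108 CPM in Col-0 (log2 0.60, SE 0.126, edgeR adjusted p = 0.009509). XTH32 stood at 29.8, 42.1 and 39.3 CPM, against 19.6, 21.1 and 26.0 CPM in Col-0 (log2 0.74, SE 0.164, edgeR adjusted p = 0.01238). XTH33 stood at 7.08, 5.81 and 4.70 CPM, against 3.44, 3.14 and 3.81 CPM in Col-0 (log2 0.76, SE 0.188, edgeR adjusted p = 0.01948). The groups of all 3 were apart, and each call was lost when Col-0 library 1 was left out (0.59 for XTH31, 0.66 for XTH32 and 0.76 for XTH33). The XTH32 and XTH33 calls were also lost without Col-0 library 2 (0.70 and 0.69), and that of XTH33 without PIF3 over-expression library 1 (0.60).

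XTH21 (AT2G18800), which is needed for normal primary root growth, fell most. It stood at 3.50, 4.53 and 3.46 CPM with PIF3 over-expression, against 9.96, 9.65 and 7.14 CPM in Col-0, 2.33-fold lower (SE of log2 0.201, edgeR adjusted p = 0.003469). XTH6 (AT5G65730) stood at 30.8, 43.6 and 40.5 CPM, against 88.3, 69.9 and 70.9 CPM in Col-0. Its groups did not overlap, yet the call (log2 -1.0, SE 0.301, edgeR adjusted p = 0.04486) was lost when any 1 of the 6 libraries was left out (-0.86 to -1.10). XTH9 (AT4G03210) stood at 49.6, 52.0 and 48 CPM, against 70.0, 82.7 and 66.4 CPM in Col-0 (log2 -0.55, SE 0.146, edgeR adjusted p = 0.02596). XTH27 (AT2G01850), known from developing vein xylem, stood at 57.1, 71.6 and 71.2 CPM, against 91.6, 89.7 and 97.1 CPM in Col-0 (log2 -0.48, SE 0.108, edgeR adjusted p = 0.01324). Both were below Col-0 in every library. The XTH9 call was lost without Col-0 library 1 or 2 or PIF3 over-expression library 1 or 3 (-0.45 to -0.58), and the XTH27 call without Col-0 library 1 (-0.49) or PIF3 over-expression library 1 (-0.38). Of the 12 calls, EXPA11, EXPA12, XTH19 and XTH21 held under every alternative tried.

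**Figure D4:**
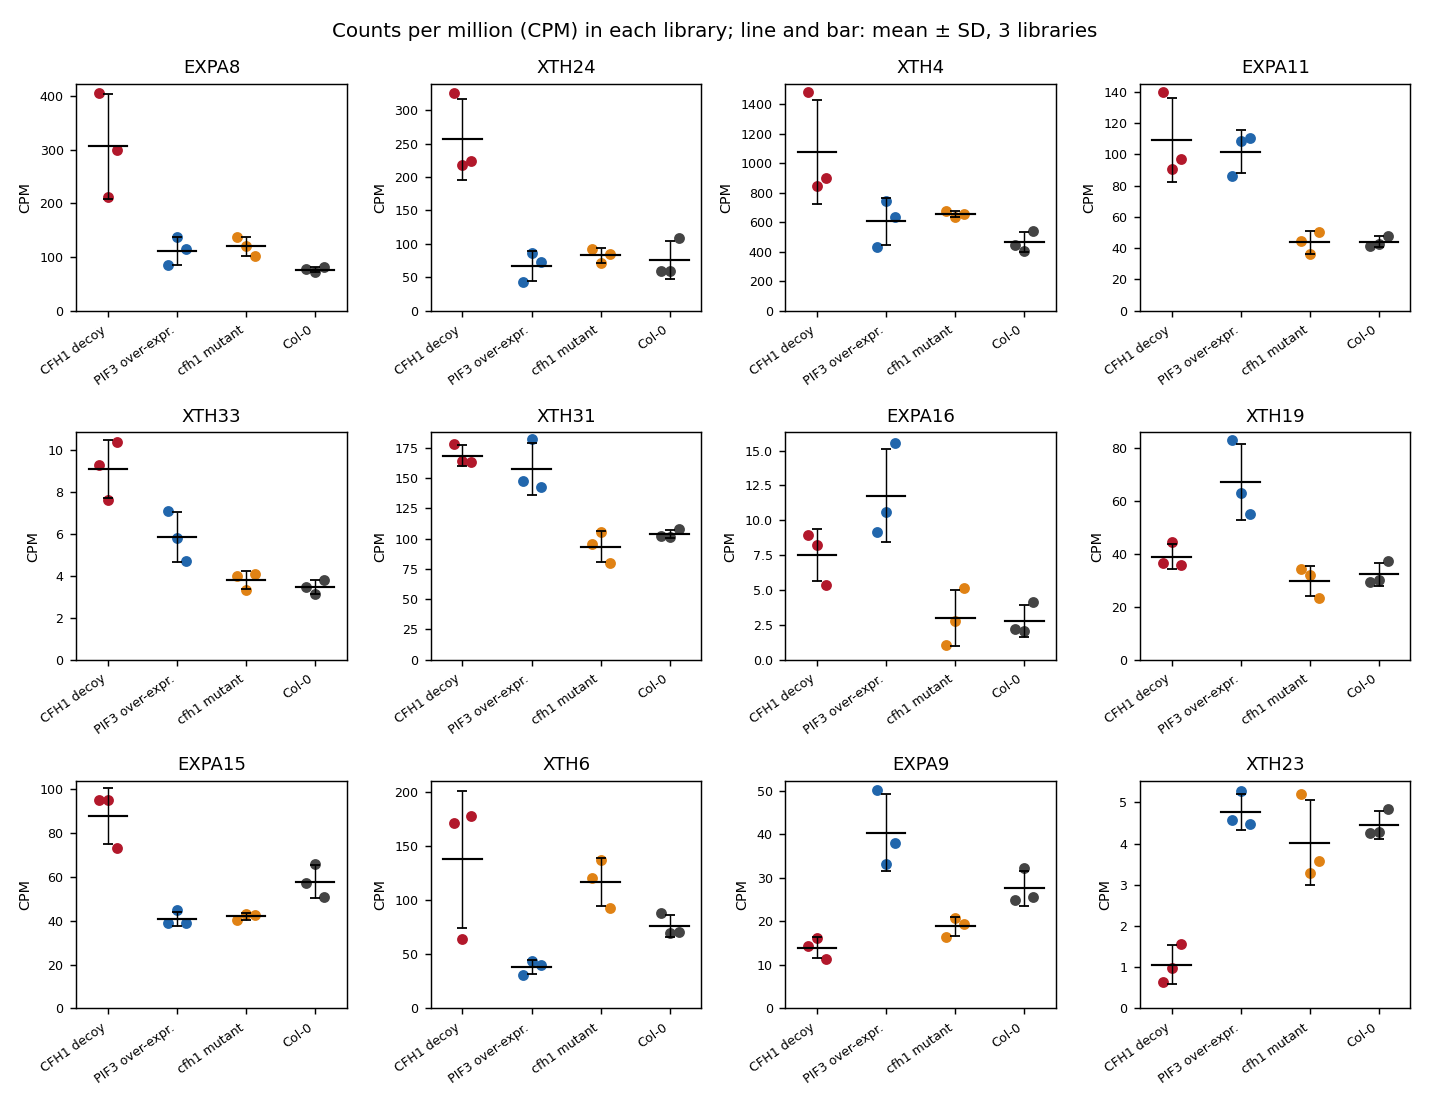
CPM of 12 members in each library, with the mean and SD of 3 libraries. EXPA8, XTH24 and XTH4 are high in the decoy line, and EXPA11, XTH31 and XTH33 are high in the decoy and PIF3 over-expression lines. EXPA15 lies on opposite sides of Col-0 in those lines. XTH6 does so by its means only, since decoy library 2 (64.2 CPM) lies below all Col-0 libraries.

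The E-box count can be set beside these calls. It was present in 3 of the 7 members higher with PIF3 over-expression (EXPA11, EXPA12 and XTH33), in 0 of the 5 lower and in 7 of the 33 that did not pass. In the decoy line it was present in 4 of 16 higher, 1 of 8 lower and 5 of 21 that did not pass. These are counts of few genes and were not tested. EXPA12 entered them only because the PIF3 over-expression libraries passed the filter on low counts. Its E-box is therefore no support in either line.

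The decoy and PIF3 over-expression lines were also compared with each other, since both carried changes in the same families. Of the 45 members, 14 were higher in the decoy (31.1%) and 10 lower (22.2%), against 20.5% and 22.7% of all genes tested. EXPA12, among the 10, passed the filter on low counts through the PIF3 over-expression libraries alone and is no support for that share. EXPA12 had 2 counts over the decoy libraries, against 185 with PIF3 over-expression, a ratio of 0.0144 (95% interval 0.00173 to 0.0528, counting error only), with edgeR adjusted p = 1.037e-05. XTH6 was 3.6-fold higher in the decoy (SE of log2 0.307, edgeR adjusted p = 0.0004281), with decoy library 2 (64.2 CPM) the nearest to the PIF3 over-expression range of 30.8 to 43.6 CPM. XTH24, at 42.8, 86.0 and 73.4 CPM with PIF3 over-expression, was 3.8-fold higher in the decoy (SE of log2 0.285, edgeR adjusted p = 0.0001832). EXPA15 stood at 94.9, 95.2 and 73.1 CPM in the decoy and was 2.15-fold higher (SE of log2 0.128, edgeR adjusted p = 3.086e-05), having been above Col-0 in one line and below it in the other. EXPA8, at 84.7, 137 and 114 CPM with PIF3 over-expression, was higher in the decoy by 1.45 (SE 0.222), and XTH8, at 38.5, 62.6 and 47.9 CPM with PIF3 over-expression, by 1.2 (SE 0.170). XTH21, at 8.05, 5.58 and 7.87 CPM in the decoy, was higher by 0.90 (SE 0.203). XTH4, EXPA1, XTH17, XTH33, EXPA6, EXPA4 and XTH27 were higher by 0.32 to 0.83 on the log2 scale. Besides EXPA12, the largest falls were of XTH25 (-2.72, SE 0.620), EXPA7 (-2.13, SE 0.383), XTH23 (-2.12, SE 0.279), EXPA9 (-1.54, SE 0.179), EXPA14 (-1.40, SE 0.213) and EXPA18 (-1.32, SE 0.423), and XTH19, XTH5 and EXPB3 fell by 0.42 to 0.78. With PIF3 over-expression EXPA9 stood at 50.3, 33.1 and 37.9 CPM, EXPA14 at 14.3, 12.9 and 12.3 CPM and XTH23 at 4.57, 5.28 and 4.47 CPM, above all decoy libraries. XTH25 stood at 0.518, 0.186 and 0.451 CPM in the decoy, against 4.43, 1.04 and 1.86 CPM with PIF3 over-expression, and its log2 fold change was -1.97 without PIF3 over-expression library 1. EXPB2 stood at 0.863, 0.248 and 2.53 CPM in the decoy, against 0.395, 0.179 and 0.0562 CPM with PIF3 over-expression. Those groups overlap, and its log2 fold change of 2.52 was 1.26 without decoy library 3, when it no longer passed, and 3.35 without PIF3 over-expression library 1. Calls of EXPB2 (also without PIF3 over-expression library 2 or 3), EXPB3 (-0.29 to -0.43), XTH17 (0.53 to 0.59) and XTH27 (0.22 to 0.30) were lost without several single libraries. Others were lost without decoy library 1 (EXPA6 at 0.44 and XTH4 at 0.53), decoy library 3 (XTH33 at 0.51) or PIF3 over-expression library 1 (EXPA4 at 0.38 and EXPA18 at -1.10) or 3 (XTH33 at 0.49).

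The members that rose in both lines against Col-0 were set side by side in this direct comparison. EXPA11 differed by 0.10 (SE 0.173), XTH31 by 0.09 (SE 0.126) and XTH32 by 0.03 (SE 0.163) on the log2 scale, and none passed. EXPA16 differed by -0.65 (SE 0.415) and did not pass either, which does not show equal levels. XTH33 was higher in the decoy by 0.63 (SE 0.184, edgeR adjusted p = 0.01446).

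The cfh1 mutant was compared with Col-0 to ask whether wall gene transcripts differ when CFH1 is mutated. None of the 45 members passed in edgeR, against 0.0141% of all genes tested higher and 0.0565% lower. At an unadjusted p under 0.05, 2 members were higher and 3 lower in edgeR, and in DESeq2, which also called 0, the counts were 4 and 3. Log2 fold changes ran from -0.55 to 0.67 with a median of 0.03. The 5 members under the unadjusted threshold, named after their values were seen, included EXPA8 at 137, 121 and 102 CPM in cfh1, against 77.7, 71.6 and 81.1 CPM in Col-0 (log2 0.64, SE 0.219, edgeR adjusted p = 0.9695). EXPA15 stood at 40.1, 43.2 and 42.8 CPM in cfh1, against 57.2, 65.6 and 50.6 CPM in Col-0 (log2 -0.46, SE 0.127, edgeR adjusted p = 0.8517). Both were apart from Col-0 in every library but failed the correction. The others were XTH22 (0.66, SE 0.246), EXPA9 (-0.55, SE 0.175) and XTH21 (-0.51, SE 0.197), each at an edgeR adjusted p of 0.9695.

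Against the cfh1 mutant, 14 of the 45 members were higher in the decoy (31.1%) and 7 lower (15.6%), against 15.0% and 18.2% of all genes tested. XTH24 was 3.09-fold higher (SE of log2 0.282), with 93.0, 70.9 and 84.8 CPM in cfh1, and EXPA8 2.55-fold (SE of log2 0.221). EXPA15 was 2.09-fold higher (SE of log2 0.128, edgeR adjusted p = 6.29e-05). EXPA11, at 44.5, 36.0 and 50.5 CPM in cfh1, was higher by 1.32 on the log2 scale (SE 0.176), and XTH33, between 3.33 and 4.09 CPM in cfh1, by 1.25 (SE 0.189). XTH8, at 58.9, 60.7 and 62.4 CPM in cfh1, was higher by 0.92 (SE 0.169), and XTH31, at 95.6, 105 and 79.5 CPM in cfh1, by 0.85 (SE 0.127). EXPA16 spread widely in cfh1 (1.07, 2.77 and 5.12 CPM) and was higher by 1.31 in the decoy, or by 1.97 without cfh1 library 3. Its call was lost without cfh1 library 1 (0.91) or 2 (1.26) or decoy library 1 (1.18) or 2 (1.24). The other 6 members that were higher, EXPA1, EXPA3, EXPA4, XTH4, XTH28 and XTH32, lay between 0.37 and 0.79.

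Among the 7 members that were lower in the decoy than in cfh1, EXPA12 had 2 counts over the decoy libraries, against 19 over the cfh1 libraries (ratio 0.119, 95% interval 0.0134 to 0.492). It was tested here only because the PIF3 over-expression libraries passed the filter on low counts. XTH25, at 1.07, 0.785 and 2.26 CPM in cfh1, was lower by 1.89 (SE 0.632), a call lost without any 1 library other than cfh1 library 2 (-1.32 to -2.12). XTH23 fell by 1.88 (SE 0.281), with 5.21, 3.29 and 3.57 CPM in cfh1. The root hair expansin EXPA7, at 16.5, 17.7 and 8.63 CPM in cfh1, fell by 1.48 (SE 0.381). EXPA14, at 7.38, 9.61 and 8.72 CPM in cfh1, fell by 0.77 (SE 0.214), and XTH15, at 18.1, 17.6 and 17.9 CPM in cfh1, by 0.73 (SE 0.150). XTH16, at 38.5, 29.8 and 28.2 CPM in the decoy and 38.4, 48.8 and 51.6 CPM in cfh1, fell by 0.53 (SE 0.153) with overlapping groups. Of the 21 calls, 12 held when any 1 library was left out, namely EXPA7, EXPA8, EXPA11, EXPA12, EXPA15, XTH8, XTH15, XTH23, XTH24, XTH31, XTH32 and XTH33. The EXPA14 call was lost without decoy library 3 or cfh1 library 2, that of XTH16 without decoy library 3 or cfh1 library 2 or 3, that of XTH28 without decoy library 3 or cfh1 library 1 or 3, and that of EXPA3 without decoy library 1 or cfh1 library 1 or 2. The XTH4 call was lost without decoy library 1 or any cfh1 library, that of EXPA4 without any library other than decoy library 3, and that of EXPA1 without any library other than decoy library 2.

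With PIF3 over-expression, 9 members were higher than in cfh1 (20.0%) and 4 lower (8.89%), against 5.70% and 7.18% of all genes tested. EXPA12, among the 9, passed the filter on low counts through the PIF3 over-expression libraries alone and is no support for that share. EXPA12 was higher by 3.01 on the log2 scale (SE 0.418), with 0.207, 0.224 and 0.214 CPM in cfh1, and EXPA16 by 1.97, or by 2.62 without cfh1 library 3. The EXPA16 call was lost without cfh1 library 2 (1.92). EXPA11 was higher by 1.22 (SE 0.176), and XTH19, at 34.1, 32.2 and 23.5 CPM in cfh1, by 1.17 (SE 0.176). EXPA9 was 2.14-fold higher with PIF3 over-expression than in cfh1, where it stood at 16.4, 20.8 and 19.4 CPM (SE of log2 0.175, edgeR adjusted p = 0.002752). XTH31 was higher by 0.76 (SE 0.127), and XTH32, at 21.5, 26.6 and 24.2 CPM in cfh1, and XTH33 by 0.62 each. XTH5, at 11.7, 8.83 and 9.17 CPM with PIF3 over-expression and 5.45, 5.16 and 7.60 CPM in cfh1, was higher by 0.70. XTH6 was 3.06-fold lower with PIF3 over-expression than in cfh1, where it stood at 121, 137 and 92.9 CPM (SE of log2 0.305, edgeR adjusted p = 0.006438). XTH21, at 5.93, 7.37 and 5.55 CPM in cfh1, fell by 0.71 (SE 0.202), XTH27, at 101, 102 and 95.9 CPM in cfh1, by 0.58 (SE 0.108), and XTH9, at 65.7, 82.8 and 74.1 CPM in cfh1, by 0.57 (SE 0.146). Of the 13 calls, EXPA9, EXPA11, EXPA12, XTH6, XTH19, XTH27 and XTH31 held when any 1 library was left out. XTH32 and XTH33 lost their calls without any cfh1 library, and XTH5 and XTH21 without cfh1 library 1 or 2. Without PIF3 over-expression library 1 the calls of XTH5, XTH9, XTH21 and XTH33 were lost, without library 2 those of XTH32 and XTH33, and without library 3 those of XTH5, XTH9, XTH21 and XTH32. The XTH9 call was also lost without cfh1 library 2.

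Summed over all 48 members, the level was 5788, 3799 and 4375 CPM in the decoy line. It was 2500, 3617 and 3099 CPM with PIF3 over-expression and 3407, 3328 and 3055 CPM in cfh1, against 2851, 2700 and 3027 CPM in Col-0. On this TMM scale all decoy libraries lay above all others. As a share of all counts the sums were 0.459%, 0.357% and 0.381% in the decoy, above the 0.296%, 0.283% and 0.308% of Col-0, but decoy libraries 2 and 3 lay below PIF3 over-expression library 2 (0.387%). The 23 expansins summed to 2027, 1453 and 1553 CPM in the decoy libraries, against 1127, 1130 and 1040 CPM in Col-0, and the 25 XTHs to 3761, 2345 and 2822 CPM, against 1724, 1569 and 1988 CPM. These sums lean on XTH4, XTH7 and EXPA1.

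**Figure D5:**
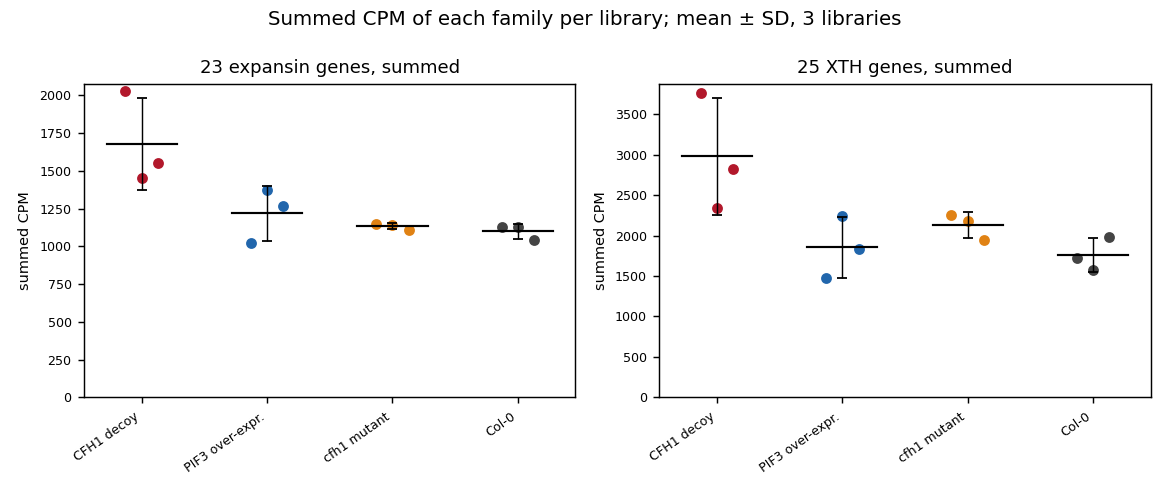
Summed CPM of 23 expansin and 25 XTH genes in each library, with the mean and SD of 3 libraries. The decoy libraries sum to 1453 to 2027 CPM for expansins and 2345 to 3761 CPM for XTHs, above the Col-0 libraries.

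Other genes of the same pathways were taken from lists drawn from general knowledge. In the decoy, 7 of 11 xyloglucan synthesis genes rose and 1 fell: the galactosyltransferase XLT2 (1.08, SE 0.148) and the backbone synthase CSLC4 (0.80, SE 0.144) were higher, and its relative CSLC12 was lower (-1.12, SE 0.182). The median was 0.34 on the log2 scale. Of all genes tested, 19.6% were higher in the decoy and 21.2% lower. The count of risen genes was 4 without decoy library 1 or Col-0 library 1 or 2. Primary wall cellulose synthesis genes rose at 7 of 9 and fell at 1, with CESA3 (0.83) and COB (0.75) higher, CESA9 (-1.29) lower and a median of 0.62. The plasma membrane proton pumps, which acidify the wall, rose at 3 of 4: AHA1 (0.87), AHA11 (0.83) and AHA2 (0.78). AHA1 stood at 1496, 916 and 1118 CPM in the decoy libraries, against 631, 601 and 696 CPM in Col-0. Xyloglucan trimming genes rose at 2 of 3 (BGAL10 at 0.65 and XYL1 at 0.49), and of 3 touch genes the calmodulin TCH1 fell (-0.69). Without decoy library 3, 2 touch genes fell. With library totals alone the counts of risen genes were 2 of 11 in xyloglucan synthesis, 5 of 9 in cellulose synthesis and 3 of 4 among the pumps.

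With PIF3 over-expression, 2 of 11 xyloglucan synthesis genes rose (CSLC12 at 0.68 and FUT1 at 0.39). That count was 0 without any 1 library other than PIF3 over-expression library 3. The count of passing genes in edgeR was 0 of 9 for cellulose synthesis, 0 of 4 for the pumps, 0 of 3 for touch genes and 0 of 3 for trimming. Of all genes tested, 6.0% were higher in that line and 7.32% lower, so counts of 0 in lists this short say little. At an unadjusted p under 0.05 in edgeR, 1 cellulose synthesis gene, 0 pumps and 3 trimming genes were higher and 1 touch gene lower. DESeq2 called 5 xyloglucan synthesis genes and 2 trimming genes higher and 1 touch gene lower. In cfh1, 0 of the 57 genes tested in the related and marker lists passed against Col-0 in edgeR or in DESeq2, and 2 were higher at an unadjusted p under 0.05. Over all genes tested in edgeR, 0.0141% were higher in cfh1 and 0.0565% lower.

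The remaining expansin and XTH genes of the families were 20 in the table, of which 10 were tested. With PIF3 over-expression edgeR gave 4 rises and 0 falls, against 6.0% of all genes tested higher and 7.32% lower. DESeq2 called 4 of these genes higher and 1 lower in that line. EXLB1, an expansin-like gene, stood at 244, 61.8 and 59.7 CPM, against 19.9, 21.9 and 29.3 CPM in Col-0 (log2 2.37, SE 0.456, edgeR adjusted p = 0.006841). Library 1 was far above the other PIF3 over-expression libraries, all of which exceeded Col-0. XTH11 rose by 2.05 and XTH12 by 1.74, and the count of rises ran from 1 to 4 when single libraries were left out. XTH11 had 66, 24 and 41 counts with PIF3 over-expression, against 10, 8 and 11 in Col-0. It was tested only because the PIF3 over-expression libraries passed the filter on low counts, so it is no support for the count of rises. In the decoy line 2 rose and 3 fell, against 19.6% of all genes tested higher and 21.2% lower. EXLA3 rose by 2.43, and XTH26 and XTH13 fell by 1.67 and 1.17. The count of falls was 1 without Col-0 library 3, and 2 without decoy library 1 or Col-0 library 1 or 2. With library totals alone 1 rose and 3 fell, and DESeq2 called 2 in each direction. XTH26, known from root hairs, stood at 5.35, 0.837 and 8.32 CPM in the decoy libraries, against 14.8, 13.9 and 16.8 CPM in Col-0, so that decoy library 2 was again the lowest. Endodermis markers fell at 2 of 7 in the decoy (MYB36 at -1.48 and CASP4 at -0.79), against 21.2% of all genes tested. The 7 markers summed to 166.4, 78.2 and 126.6 CPM in the decoy libraries, against 145.7, 107.4 and 120.8 CPM in Col-0, with overlapping groups. With PIF3 over-expression 1 of 7 rose (CASP5 at 1.54), and the share of all genes higher in that line is given above. CESA7 (1.05) was the 1 of 3 xylem secondary wall markers that rose in the decoy, against 19.6% of all genes tested. The endodermis count in the decoy was 1 without any 1 library other than decoy library 1, and that with PIF3 over-expression was 0 without Col-0 library 1 or 2 or PIF3 over-expression library 1 or 2. The xylem count was 3 without decoy library 2, 2 without Col-0 library 3 and 2 in DESeq2.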

How the data were processed

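The authors deposited 1 table of estimated counts, fractional read counts per gene, for 27588 genes in 12 libraries. Of its values, 41.6% were not whole at a tolerance of 1e-09. Tools named per the submitters' processing notes, with no role stated, are StringTie 2.1.2, HISAT2 2.1.0 and Trimmomatic 0.39, with build TAIR10. No source used here names the tool that counted reads.

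Estimated counts were rounded and fitted in R 4.3.3 with edgeR 4.0.16 (quasi-likelihood, 2-sided, 1 mean per genotype, all 12 libraries, 8 residual degrees of freedom). TMM factors and filterByExpr (minimum count 10) left 21235 genes, and p-values were adjusted by Benjamini-Hochberg over all of them, at a threshold of 0.05. CPM are counts divided by the library total times its TMM factor. SE values are the log2 fold change divided by the square root of F. Genotype groups follow the genotype field. Lengths, positions and promoters came from the TAIR10.1 annotation, whose locus codes matched 27389 genes. Per comparison, members that passed were given with all values up to 8 per direction, with at most 3 genes per related list, and any gene outside this rule is marked in the text. The members, lists and alternatives were chosen with earlier results of these data known. The pipeline was tested on simulated data. Alternatives were DESeq2 1.42.0, RLE factors, scaling by library totals, a looser or stricter filter, unrounded counts, only the groups compared, no decoy libraries, a replicate block, a fold minimum and each library left out. Ratio intervals cover counting error only.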

Additional observations from a re-analysis of the deposited data

How the results depend on the processing

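Counts of members called in each comparison were within 1.5 times the reported ones under RLE factors, no filter, a stricter filter, unrounded counts, DESeq2, the fit without the decoy libraries and the replicate block. Other settings moved some of them. Under library totals alone, the decoy had 9 members higher and 16 lower than Col-0. It had 7 higher and 20 lower than PIF3 over-expression, and 8 higher and 16 lower than cfh1. The median log2 fold change of all genes was then -0.25, -0.36 and -0.23 in these comparisons. That of the members was -0.084, -0.31 and -0.018. PIF3 over-expression then had 3 lower than Col-0 and 2 lower than cfh1. With a log2 fold change of 1 or more in size as a further rule, the decoy had 7 higher and 3 lower than Col-0, 6 higher than PIF3 over-expression, and 6 higher and 4 lower than cfh1. PIF3 over-expression had 4 higher and 1 lower than Col-0, and 5 higher and 1 lower than cfh1. With only the groups compared, 11 members were higher with PIF3 over-expression than in Col-0, and 4 were lower in the decoy than in cfh1. The cause of these moves was not tested. XTH27 in the decoy against PIF3 over-expression reversed to -0.022 under library totals alone. When single libraries were left out, counts of members higher and lower ran from 11 to 20 and 6 to 9 for the decoy against Col-0, 3 to 9 and 1 to 4 for PIF3 over-expression against Col-0, 10 to 17 and 9 to 12 for the decoy against PIF3 over-expression, 8 to 16 and 6 to 8 for the decoy against cfh1, 5 to 7 and 2 to 4 for PIF3 over-expression against cfh1, and stayed at 0 for cfh1 against Col-0. Whether replicate numbers pair the samples was not settled. Deviations of same-numbered libraries correlated between -0.364 and 0.271, but different-numbered libraries were not compared. With the replicate block, the decoy had 15 members higher and 8 lower than Col-0, and 13 and 10 than PIF3 over-expression, which itself had 8 and 4 than Col-0. Estimated counts that share reads limit XTH17 to XTH20, and members under about 1 CPM (EXPA12, EXPB2, XTH25) rest on few counts.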
